A study of Arabidopsis thaliana with 15 samples.

Results

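Transcript levels of 7 genes of auxin, cytokinin and phytochrome A signalling were followed in darkened leaves of Arabidopsis thaliana, among 16174 genes measured. The 7 were WES1, IAA29 and HAT2 of the auxin response, the growth gene EXO, the cytokinin response regulators ARR15 and RR16, and FHL, which serves nuclear import of phytochrome A. They were listed by name and found by symbol among probe sets that the annotation pairs with exactly 1 gene, and each had 1 probe set. They were chosen by their log2 intensities across the 5 groups of these same arrays, so those values are given below as a description with standard errors (SE) and without a test. Tests are given for other genes of the same pathways.

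All plants were wild-type Col-0, grown at 22 °C with 8 h of white light at 180 µmol and 16 h of dark per day, and every leaf was taken at noon. There were 5 groups of 3 arrays. The light group was leaves at day 0, before any darkening. Whole plants kept in dark boxes (darkened plant, DP) were sampled at day 3 and day 6. On other plants 2 fully expanded leaves were covered with foil-coated mittens while the rosette stayed in the normal light cycle (individually darkened leaf, IDL), and these leaves too were sampled at day 3 and day 6. Each array carried RNA pooled from 2 leaves of separate plants, and the p-values given here measure the spread between such pools. No leaf was kept in light to day 3 or day 6, so time in darkness and leaf age cannot be told apart, and all 4 comparisons with light share the same 3 light arrays.

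Auxin moves growth genes by letting the Aux/IAA repressor proteins be destroyed, and GH3 enzymes limit the hormone by joining it to amino acids. Cytokinin signals pass by phosphotransfer to response regulators. Type B regulators switch genes on, whereas type A regulators are themselves switched on by cytokinin and dampen the signal. Phytochrome A is the light receptor that builds up in darkness, and the related proteins FHY1 and FHL carry it into the nucleus. In leaves, darkness can lead to senescence, which cytokinin delays, and DP and IDL need not act alike in this.

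Values are log2 of the deposited intensity, so a difference of 1 is a doubling, and levels are compared between groups and never between genes. Array medians were 19.53 to 19.56 in intensity in light and lower, 18.31 to 19.04, in the darkened groups. Arrays of the same group correlated at 0.9827 to 0.9893 over all genes, and those of different groups at 0.8215 to 0.979. No detection call or background value was used, and the lower quartile of all genes, which lay between 3.44 and 3.51 in the 5 groups, serves here as the mark of a dim probe set. Of 10 mesophyll marker genes 4 were measured (RCA, LHCB4.2, PSBW and PSAE-1). Their summed intensity was 7964 to 10558 in light, 2119 to 2311 in DP at day 3, 1041 to 1132 in DP at day 6, 1682 to 1914 in IDL at day 3 and 1464 to 1569 in IDL at day 6. Of 4 guard cell markers FMA alone was measured, with an intensity of 38 to 44 in light. In DP it was 40 to 57 at day 3 and 40 to 51 at day 6, overlapping light. In IDL it was 45 to 56 at day 3 and 50 to 62 at day 6, above light at both days. None of the markers listed for phloem, xylem, epidermis, trichomes or root was measured. The markers' part in the results below was not tested, and fewer cells of a type and less RNA per cell cannot be told apart in such pools.

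WES1 (AT4G27260), also known as GH3.5, encodes an enzyme that joins amino acids to auxin. Its log2 intensity in the 3 arrays was 4.55, 5.34 and 4.87 in light, 9.24, 9.50 and 8.51 in DP at day 3, and 9.50, 8.95 and 9.26 in DP at day 6. In IDL it was 9.98, 10 and 9.58 at day 3, and 10.05, 9.98 and 10 at day 6. Every darkened array thus stood far above every light array, and every IDL array stood above every DP array. Of all genes, 11.1% had all 4 darkened groups above light without overlap. From light (4.92 ± 0.40, SD, n = 3) the means climbed over DP at day 3 (9.08 ± 0.51), DP at day 6 (9.24 ± 0.28) and IDL at day 3 (9.85 ± 0.24) to IDL at day 6 (10.01 ± 0.03). Neighbours in that order overlapped within DP and within IDL and were apart elsewhere.

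The WES1 difference from light was 4.16 (17.9-fold) and 4.32 (19.9-fold) in DP at day 3 and day 6, and 4.93 (30.5-fold) and 5.09 (34-fold) in IDL, each with an SE of 0.21. Ranked among all 16174 genes from the highest difference down, WES1 was 11th and 13th in DP, and 6th in IDL at both days. IDL exceeded DP by 0.77 at day 3 and by 0.77 at day 6. The day 3 value was 0.48 without replicate 3 of DP at day 3, the lowest of the 6 arrays. From day 3 to day 6 the mean was higher by 0.16 in both treatments, with overlapping arrays.

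IAA29 (AT4G32280) encodes an Aux/IAA repressor whose transcript is induced by auxin. Its log2 intensity was 5.09, 5.52 and 5.15 in light, and 5.37, 4.73 and 5.26 in DP at day 3. At day 6 of DP it was 3.55, 3.37 and 3.79. In IDL it was 3.4, 3.41 and 3.75 at day 3, and 3.26, 3.25 and 3.46 at day 6. The arrays fell into a high pair of groups (light and DP at day 3) and a low trio of groups, with no value between 3.79 and 4.73. Within the pair the arrays overlapped, and the means were 5.25 ± 0.24 in light and 5.12 ± 0.34 in DP at day 3 (SD, n = 3). In the low trio, where neighbouring groups overlapped, the means of 3.57, 3.52 and 3.32 lay close to the lower quartile of all genes, so differences into these groups may be understated.

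Against light, IAA29 differed by -0.13 in DP at day 3, -1.68 in DP at day 6, -1.73 in IDL at day 3 and -1.93 in IDL at day 6, with an SE of 0.16. The first of these changed sign when 1 array was omitted, being 0.003 without light replicate 2 and 0.061 without replicate 2 of DP at day 3. IDL was below DP by 1.60 at day 3 with no overlap, and the difference at day 6 was -0.24 with overlapping arrays (-0.136 without replicate 3 of DP at day 6). DP at day 6 was lower than DP at day 3 by 1.55, the 13th lowest of all genes in that comparison, while in IDL the difference between days was -0.20.

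**Figure D1:**
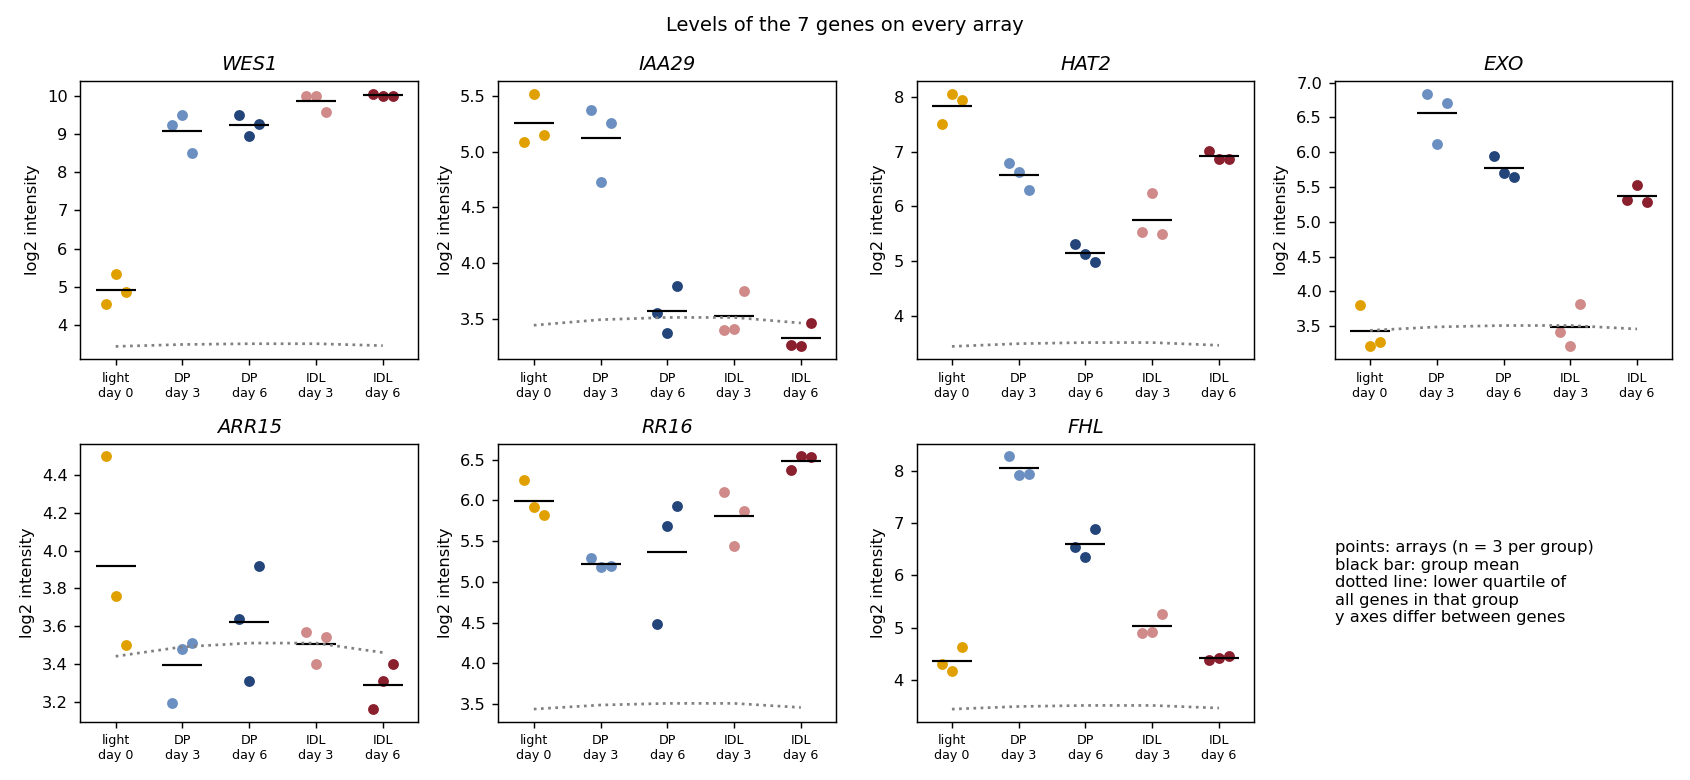
Log2 intensity of the 7 genes (vertical axes) in the 5 groups (horizontal axis); points are single arrays, bars are means of 3 arrays, and the dotted line is the lower quartile of all genes in each group. WES1 stands higher in all 4 darkened groups, EXO and FHL stand highest in DP at day 3, and HAT2 stands lowest in DP at day 6.

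HAT2 (AT5G47370) encodes a class II homeodomain-leucine zipper transcription factor that auxin induces rapidly in seedlings. Its log2 intensity was 7.51, 8.06 and 7.94 in light, 6.8, 6.62 and 6.30 in DP at day 3, and 5.32, 5.13 and 4.98 in DP at day 6. It was 5.53, 6.24 and 5.5 in IDL at day 3, and 7.02, 6.86 and 6.87 in IDL at day 6. No array of 1 group overlapped those of another. From highest to lowest the means ran from light (7.84 ± 0.29, SD, n = 3) over IDL at day 6 (6.92 ± 0.09), DP at day 3 (6.57 ± 0.25) and IDL at day 3 (5.76 ± 0.42) to DP at day 6 (5.14 ± 0.17).

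HAT2 lay below light by 1.26 in DP at day 3, 2.69 in DP at day 6, 2.08 in IDL at day 3 and 0.92 in IDL at day 6 (log2 differences of -1.26, -2.69, -2.08 and -0.92, SE 0.18). The treatments thus ran in opposite directions between the days. DP at day 6 differed from DP at day 3 by -1.43, 21st from the bottom of all genes, and IDL at day 6 differed from IDL at day 3 by 1.16. The change in IDL minus the change in DP was 2.59 ± 0.25 (SE), 19th from the top. IDL was below DP at day 3 (-0.82) and above it at day 6 (1.77). Of the 16174 genes, 94 (0.581%) were, like HAT2, below DP at day 3 and above DP at day 6 with no overlap of arrays at either day. All 4 darkened groups were below light without overlap in 2124 genes (13.1%), HAT2 among them.

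EXO (AT4G08950), EXORDIUM, encodes a protein of the cell wall space that brassinosteroids induce and that promotes leaf cell expansion. Its log2 intensity was 3.80, 3.22 and 3.28 in light, 6.84, 6.12 and 6.71 in DP at day 3, and 5.95, 5.70 and 5.65 in DP at day 6. It was 3.42, 3.21 and 3.82 in IDL at day 3, and 5.31, 5.53 and 5.28 in IDL at day 6. The arrays of light and IDL at day 3 overlapped and lay around the lower quartile of all genes, and the other 3 groups stood apart from them and from each other. The order was DP at day 3 (6.56 ± 0.38, SD, n = 3), DP at day 6 (5.76 ± 0.16), IDL at day 6 (5.37 ± 0.14), then IDL at day 3 (3.48 ± 0.31) and light (3.43 ± 0.32).

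Against light, EXO differed by 3.13 and 2.33 at day 3 and day 6 of DP, and by 1.94 in IDL at day 6, with an SE of 0.18. These sizes may be understated because the light level is dim. In IDL at day 3 the difference was 0.05, and it was -0.055 without light replicate 2, -0.025 without light replicate 3 and -0.118 without replicate 3 of IDL at day 3. IDL was below DP by 3.07 at day 3, 6th from the bottom of all genes, and by 0.39 at day 6. Between the days EXO went down by 0.79 in DP (a difference of -0.79) and up by 1.89 in IDL (45th from the top), and the change in IDL minus that in DP was 2.68 ± 0.26 (SE), 18th from the top. HAT2 and EXO were both among the 190 genes (1.17%) that were lower at day 6 than at day 3 in DP and higher in IDL with no overlap.

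The plot of differences from light sets these genes beside the cytokinin regulators and FHL.

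**Figure D2:**
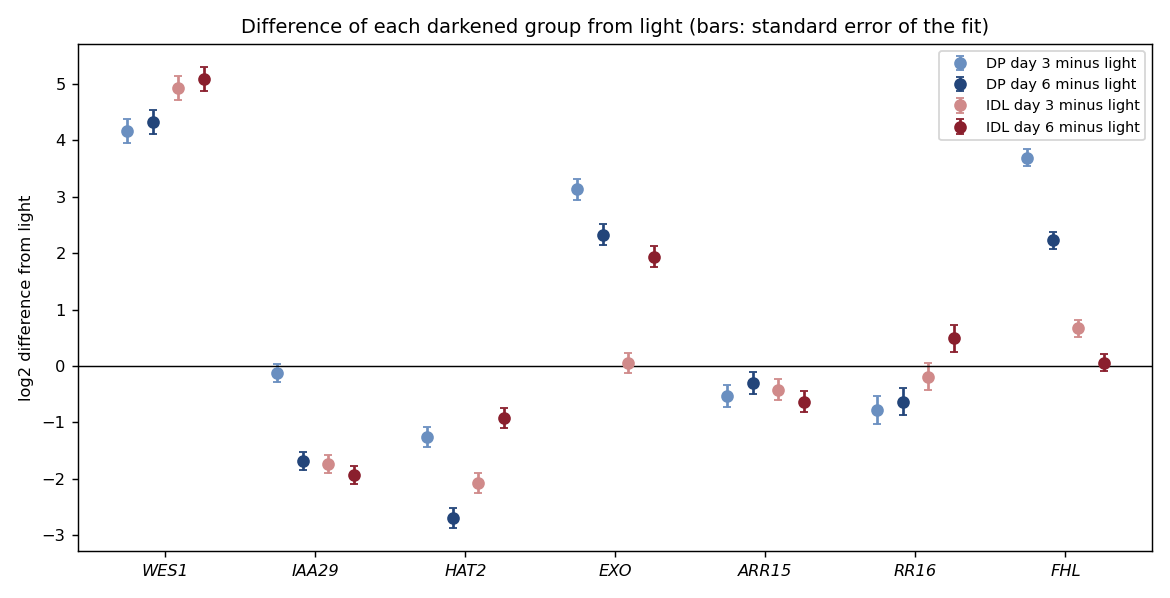
Log2 difference from light (vertical axis) of the 7 genes (horizontal axis) in the 4 darkened groups. Points are differences of group means and bars are 1 SE of the fit over 15 arrays. WES1 lies between 4.16 and 5.09, HAT2 lies below 0 throughout, and ARR15 and RR16 stay between -0.78 and 0.49.

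ARR15 (AT1G74890) encodes a type A response regulator, an early target and a negative regulator of cytokinin signalling. Its log2 intensity was 4.50, 3.76 and 3.5 in light, 3.19, 3.48 and 3.51 in DP at day 3, and 3.64, 3.31 and 3.92 in DP at day 6. It was 3.57, 3.4 and 3.54 in IDL at day 3, and 3.16, 3.31 and 3.4 in IDL at day 6. Only IDL at day 6 was free of overlap with light, and the means of the darkened groups, 3.29 to 3.62, lay close to the lower quartile of all genes. The light mean (3.92 ± 0.52, SD, n = 3) rested in part on replicate 1.

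The ARR15 differences from light were -0.53 and -0.30 in DP at day 3 and day 6, and -0.42 and -0.63 in IDL, with an SE of 0.19. Without light replicate 1 they were -0.234, -0.004, -0.125 and -0.338. IDL minus DP was 0.11 at day 3 and -0.33 at day 6, with overlapping arrays at both days. The former was 0.010 and 0.167 without replicates 1 and 3 of DP at day 3, and the latter was -0.187 without replicate 3 of DP at day 6.

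RR16 (AT2G40670), the other type A regulator measured, was brighter than that quartile in every array. Its log2 intensity was 6.25, 5.92 and 5.82 in light, 5.29, 5.18 and 5.19 in DP at day 3, and 4.48, 5.69 and 5.93 in DP at day 6. It was 6.10, 5.44 and 5.87 in IDL at day 3, and 6.37, 6.54 and 6.53 in IDL at day 6. IDL at day 6 stood above all arrays of the other groups, and DP at day 3 stood below light. Light and IDL at day 3 overlapped, and DP at day 6 overlapped light and both day 3 groups. Within DP at day 6 the spread was wide (5.37 ± 0.78, SD, n = 3), with replicate 1 below the others. The other means were 6.48 ± 0.10 in IDL at day 6, 6.00 ± 0.22 in light, 5.80 ± 0.33 in IDL at day 3 and 5.22 ± 0.06 in DP at day 3.

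RR16 differed from light by -0.78 in DP at day 3, -0.63 in DP at day 6, -0.19 in IDL at day 3 and 0.49 in IDL at day 6, with an SE of 0.24. The second value was -0.185 without replicate 1 of DP at day 6. The third was -0.066 without light replicate 1 and -0.339 and -0.012 without replicates 1 and 2 of IDL at day 3. IDL was above DP by 0.58 at day 3 and by 1.11 at day 6, with no overlap at either day, and the latter was 0.67 without replicate 1 of DP at day 6. In IDL the level was higher by 0.68 at day 6 than at day 3, again without overlap, whereas the DP days overlapped. RR16 was one of 227 genes (1.4%) whose arrays lay below light in DP at day 3 and above light in IDL at day 6. That pattern passes over DP at day 6 and IDL at day 3, which overlapped light in RR16.

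FHL (AT5G02200) encodes the FHY1-like carrier of phytochrome A. Its log2 intensity was 4.30, 4.16 and 4.62 in light, 8.28, 7.93 and 7.94 in DP at day 3, and 6.54, 6.35 and 6.89 in DP at day 6. It was 4.89, 4.91 and 5.27 in IDL at day 3, and 4.38, 4.42 and 4.45 in IDL at day 6. Both DP groups stood above every IDL and light array, IDL at day 3 stood slightly above light, and IDL at day 6 overlapped light. The means were 8.05 ± 0.20 in DP at day 3, 6.59 ± 0.27 in DP at day 6, 5.02 ± 0.21 in IDL at day 3, 4.42 ± 0.04 in IDL at day 6 and 4.36 ± 0.23 in light (SD, n = 3).

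FHL exceeded light by 3.69 in DP at day 3 (12.9-fold, 22nd of all genes) and by 2.23 in DP at day 6 (4.7-fold), with an SE of 0.15. In IDL the difference was 0.67 at day 3 and 0.06 at day 6, and the latter was 0.025, -0.042 and 0.185 without light replicates 1, 2 and 3. IDL was below DP by 3.03 at day 3, 8th from the bottom of all genes, and by 2.18 at day 6. From day 3 to day 6 the level was lower by 1.46 in DP, 19th from the bottom, and by 0.61 in IDL. FHL was one of 393 genes (2.43%) lower at day 6 in both treatments without overlap.

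**Figure D3:**
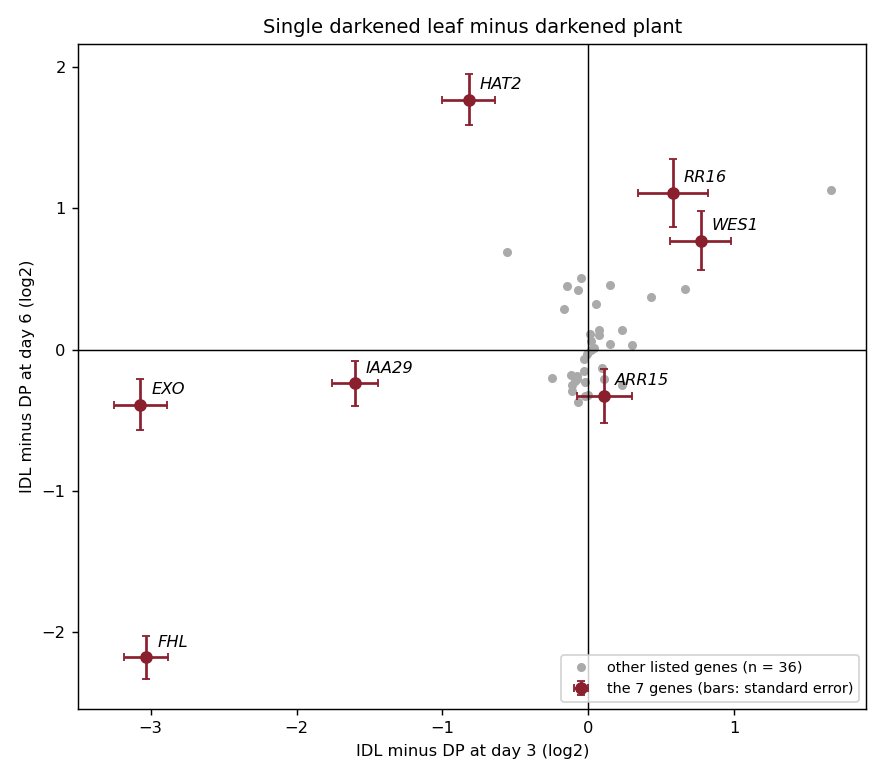
Log2 difference of IDL minus DP for the 7 genes at day 3 and day 6; points are differences of group means and bars are 1 SE. EXO and FHL lie below -3 at day 3, HAT2 crosses from -0.82 to 1.77, and WES1 is at 0.77 at both days.

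Set side by side, the 7 genes had no common direction. Against light, DP at day 3 held 3 of the 7 above the light arrays without overlap (WES1, EXO and FHL) and 2 below (HAT2 and RR16), and of all genes 23.2% were above and 21.1% below in that way. At day 6 of DP, 3 were above (WES1, EXO and FHL) and 2 below (IAA29 and HAT2), beside 25.2% and 21.7% of all genes. At day 3 of IDL, WES1 and FHL were above and IAA29 and HAT2 below, beside 27.5% and 21.1%. At day 6 of IDL, WES1, EXO and RR16 were above and IAA29, HAT2 and ARR15 below, beside 26.0% and 22.8%. Since the genes were chosen with these values known, nothing is read from the counts. Nor is anything read from the shares of genes with a pattern like that of any of the 7.

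Between treatments at day 3, WES1 and RR16 were above DP in IDL and IAA29, HAT2, EXO and FHL below, where 16.5% of all genes were above and 13.6% below without overlap. At day 6 WES1, HAT2 and RR16 were above and EXO and FHL below, beside 19.8% and 20.9%. From day 3 to day 6 in DP, 4 genes were lower without overlap (IAA29, HAT2, EXO and FHL) and none was higher, beside 10.1% and 10.2% of all genes. Over the same days in IDL, HAT2, EXO and RR16 were higher and FHL lower, beside 12.0% and 14.7%. Without overlap at either day, IDL was thus above DP at both days for WES1 and RR16, below it at both for EXO and FHL, and on opposite sides for HAT2. Of all genes, 9.71% were above at both days, 8.58% below at both, and 0.581% below at day 3 and above at day 6. IAA29 overlapped at day 6, and ARR15 overlapped at both days.

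Within groups the SD of these genes, pooled over the 5 groups, was 0.21 (FHL) to 0.39 (RR16), above the median of 0.16 for all genes. The span from the lowest to the highest group mean was 5.09 for WES1, 3.69 for FHL, 3.13 for EXO, 2.69 for HAT2, 1.93 for IAA29, 1.26 for RR16 and 0.63 for ARR15. By shape over the 5 groups, taken as the root mean square difference of group means after each gene's own mean was removed, ARR15 and RR16 were the closest pair (0.52), and EXO and FHL differed by 0.91. WES1 and HAT2 were the farthest apart (2.62).

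By the same measure the symbol-bearing genes nearest to each of the 7 were listed, 3 per gene. Only 1607 of the 16174 genes bore a symbol, so these are not the nearest of all genes. Genes without a symbol lay closer than the first-named neighbour in most cases. They numbered 10 for WES1, 9 for FHL, 3 for IAA29, 2 each for HAT2, ARR15 and RR16, and 0 for EXO. ALDH7B4, an aldehyde dehydrogenase (0.60), AKINBETA1, a subunit of the SnRK1 energy-sensing kinase (0.65), and CML41, a calmodulin-like gene (0.68), were nearest to WES1. TUB5, a beta tubulin (0.28), the cold-induced KIN2 (0.29) and CKS, an enzyme of a cell wall sugar (0.32), were nearest to IAA29, and DPE1, a starch-breakdown enzyme (0.37), OPCL1, an enzyme of jasmonate synthesis (0.39), and the beta-glucosidase gene BGLU40 (0.40) to HAT2. EXLA1, an expansin-like gene (0.52), WRKY22 (0.53) and the linker histone-like HON4 (0.69) were nearest to EXO. WRKY22, which encodes a transcription factor (0.59), was also nearest to FHL, before ATL8, a ubiquitin ligase gene (0.61), and XTH33, an enzyme of wall xyloglucan (0.67). LSM1A, BUBR1 (both 0.04) and BRCA2B (0.05) were nearest to ARR15, a gene with little range for any pattern to differ in. The lectin gene EULS3 (0.09), the ubiquitin-conjugating UBC30 (0.14) and VPS2.1 of membrane sorting (0.14) were nearest to RR16. These distances are over 5 group means and carry no test.

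**Figure D4:**
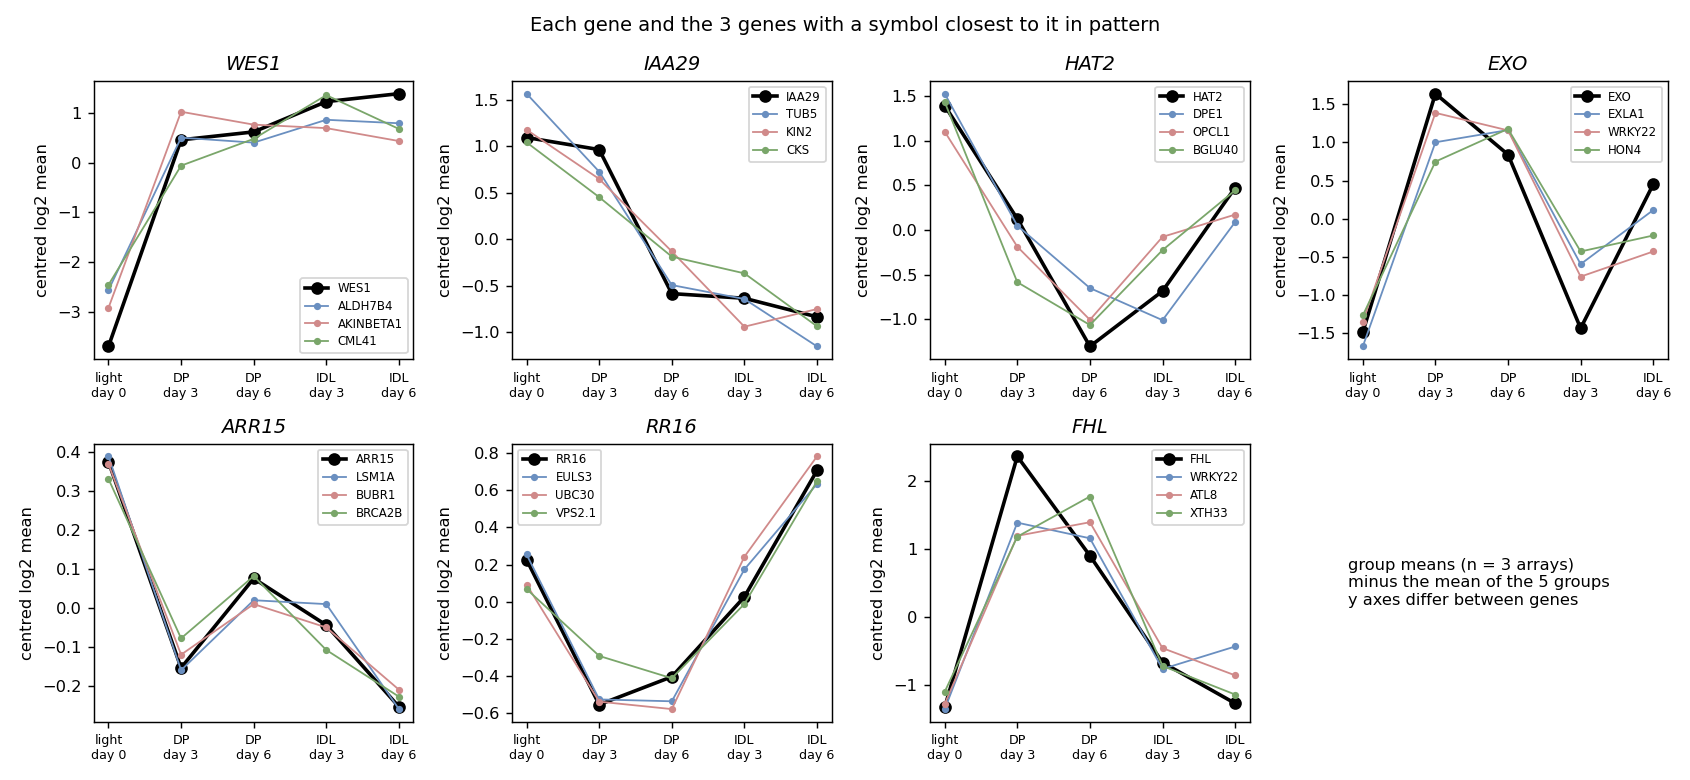
Group means after removal of each gene's own mean (vertical axis, log2) over the 5 groups (horizontal axis), for each of the 7 genes and its 3 nearest genes with a symbol. The nearest genes follow RR16 within 0.14 and WES1 within 0.68 (root mean square).

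The wider pathways could be followed only in part. Lists of auxin, growth, cytokinin and phytochrome genes held 326 entries, of which 35 (10.7%) were measured through a probe set with 1 gene. The 7 genes described above were among them, which left 28 others, of which 21 were auxin genes, 5 cytokinin genes and 2 phytochrome genes. None of the listed auxin carriers, auxin receptors, ARF factors, cytokinin receptors or photoreceptors was among them, nor was another type A regulator, class II homeodomain-leucine zipper gene or member of the EXO family. For these 28, tests were made with limma over all 16174 genes, and a gene was called at a Benjamini-Hochberg adjusted p under 0.05.

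Among the 21 auxin genes, 2 were called higher and 1 lower in DP at day 3, where 17.2% of all genes were called higher and 18.0% lower. The counts were 3 and 2 in DP at day 6 (20.3% and 19.6% of all genes), 4 and 2 in IDL at day 3 (20.8% and 18.8%) and 2 and 1 in IDL at day 6 (20.6% and 19.1%). Their median difference was 0.09, 0.09, 0.08 and 0.03, beside 0.04, 0.05, 0.06 and 0.03 over all genes. These counts and medians were low or close to those of all genes. For IDL against DP, 2 were higher and none lower at day 3 (8.74% and 7.99% of all genes), and 4 were higher and 1 lower at day 6 (15.1% and 13.9%). The 6 calls in IDL at day 3 became 3 without light replicate 3 or without replicate 3 of IDL at day 3. The 5 calls between treatments at day 6 became 2 without replicate 3 of DP at day 6 or replicate 1 or 2 of IDL at day 6, and 1 without replicate 3 of IDL at day 6.

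Of the GH3 enzymes, GH3.17 (AT1G28130), which joins glutamate to auxin, was higher in all 4 darkened groups. The 3 arrays gave 3.95, 3.39 and 3.44 in light, 4.86, 4.92 and 4.27 in DP at day 3, and 4.68, 5.0 and 4.46 in DP at day 6. Those of IDL gave 6.52, 6.46 and 6.06 at day 3, and 6.22, 5.74 and 5.57 at day 6. Every darkened array was above every light array, and every IDL array was above every DP array. The differences from light were 1.09 (adjusted p = 0.000129, limma), 1.12 (8.2e-05), 2.75 (2.03e-10) and 2.25 (4.2e-09), with an SE of 0.20. IDL exceeded DP by 1.66 at day 3 (adjusted p = 2.08e-06, limma) and by 1.13 at day 6 (0.000125). WES1 had the same order of treatments, light below DP below IDL.

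GH3.9 (AT2G47750) went the other way. On the log2 scale it was at 5.11, 4.39 and 4.16 in light, and it was 3.31 to 3.66 in the 6 DP arrays, 3.41 to 3.48 in IDL at day 3 and 3.82 to 3.92 in IDL at day 6. All darkened arrays were below all light arrays, and the means of DP at day 6 (3.42) and IDL at day 3 (3.45) were below the lower quartile of all genes. The differences from light were -0.95 (adjusted p = 6.04e-05, limma) and -1.14 (5.32e-06) in DP, and -1.11 (8.05e-06) and -0.69 (0.00141) in IDL, with an SE of 0.16. IDL exceeded DP at day 6 by 0.45 (adjusted p = 0.0425), and this call did not hold without DP replicate 1 or 3 at day 6 or any 1 array of IDL at day 6 (differences of 0.392 to 0.470, adjusted p of 0.0719 to 0.138).

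GH3.3 was lower than light by 0.64 in DP at day 6 (adjusted p = 0.0233, limma) and by 0.58 in IDL at day 3 (0.0389), and IDL exceeded DP by 0.69 at day 6 (0.0211), with an SE of 0.22. In the first 2 of these the arrays overlapped those of light, which read 3.91, 5.13 and 4.78. The first call was lost without light replicate 2 or 3 or replicate 2 or 3 of DP at day 6 (adjusted p of 0.0521 to 0.188, differences of -0.648 to -0.381). The second was lost without light replicate 2 or 3 or replicate 1 or 3 of IDL at day 3 (0.096 to 0.274, differences of -0.557 to -0.324). The third was lost without replicate 2 or 3 of DP or of IDL at day 6 (0.0514 to 0.0838, differences of 0.607 to 0.693). GH3.1 was called in IDL at day 3 alone (0.34, adjusted p = 0.0257), a call lost without light replicate 1 or 3 or replicate 1 or 3 of IDL at day 3 (0.0607 to 0.12, differences of 0.268 to 0.331). GH3.4 passed the test in none of the 6 comparisons with all arrays. Without replicate 3 of DP at day 6, IDL exceeded DP there by 0.528 in GH3.4 (adjusted p = 0.0115), against 0.292 (0.219) with it. Without replicate 3 of DP at day 3, GH3.3 passed the test between treatments at day 3 (-0.761, adjusted p = 0.031), and GH3.1 passed it in DP at day 6 without light replicate 2 (0.377, 0.0183).

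Among the 7 Aux/IAA repressors other than IAA29, IAA18 (AT1G51950) was higher in every darkened group. Measured log2 intensities were 6.03, 5.64 and 5.65 in light, 6.45, 6.37 and 6.21 in DP at day 3, and 6.65, 6.58 and 6.38 in DP at day 6. Those of IDL were 6.98, 6.95 and 7.09 at day 3, and 7.03, 6.75 and 7.13 at day 6. As with GH3.17, light was lowest and IDL highest without overlap between treatments. IAA18 rose in DP by 0.57 (adjusted p = 0.00131, limma) and 0.76 (5.04e-05), and in IDL by 1.23 (8e-08) and 1.2 (1.04e-07), with an SE of 0.13. IDL exceeded DP by 0.66 at day 3 (0.000774) and by 0.43 at day 6 (0.0145). The day 6 call did not hold without DP replicate 3 at day 6 or replicate 1 or 3 of IDL at day 6 (adjusted p of 0.0564 to 0.082, differences of 0.351 to 0.402).

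IAA31 was dim, with group means of 3.23 to 3.58. It was higher than light in DP at day 6 by 0.34 (adjusted p = 0.0194, limma), and IDL minus DP at day 6 was -0.33 (0.0327). The first call was lost without light replicate 1 or replicate 3 of DP at day 6 (0.0503 to 0.125, differences of 0.241 to 0.332). The second did not hold without DP replicate 3 at day 6 or any 1 array of IDL at day 6 (0.0527 to 0.186, differences of -0.353 to -0.227). IAA15, IAA20, IAA30, IAA33 and IAA34 passed the test in none of the 6 comparisons with all arrays. Without replicate 2 of DP at day 6, IAA34 passed it against light (0.355, adjusted p = 0.0422, from 0.218) and between treatments at day 6 (-0.453, 0.0151, from -0.315). With all arrays no call was made for the auxin synthesis genes YUC2, YUC4, YUC6 and YUC11, which encode flavin monooxygenases, and YUC2 passed the test in IDL at day 6 without light replicate 1 (-0.401, 0.0445). Of 5 SAUR genes, small auxin-induced growth genes, AT1G43040 was called in IDL at day 3 (0.38, adjusted p = 0.0291) and no other was called in any comparison. That call was lost without light replicate 2 or 3 or replicate 2 or 3 of IDL at day 3 (0.0568 to 0.107, differences of 0.326 to 0.387). The same gene passed the test in DP at day 6 without replicate 1 or 3 of that group (0.420 to 0.438, 0.0211 to 0.0298).

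**Figure D5:**
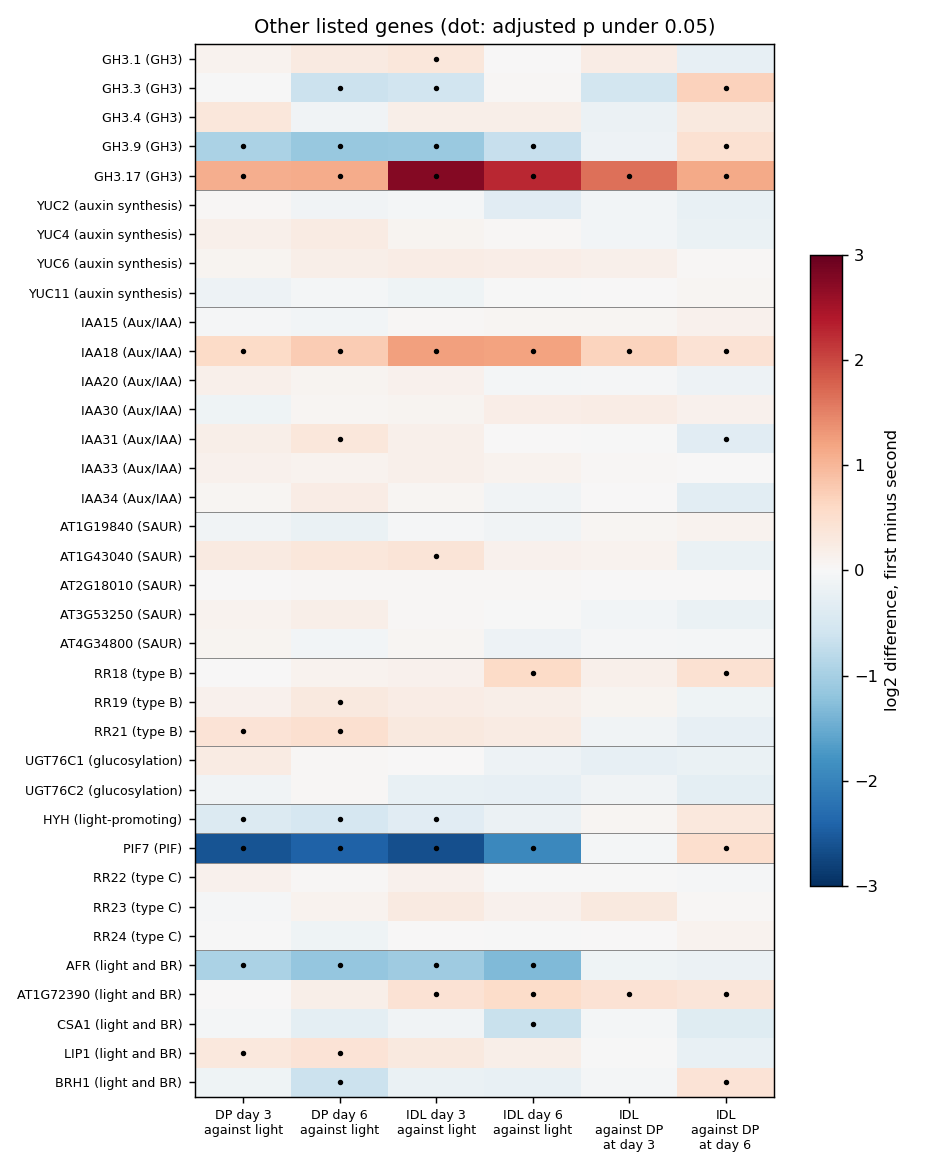
Log2 differences (colour, first group minus second) of 28 other pathway genes and 8 genes added from the annotation in 6 comparisons (columns); a dot marks an adjusted p under 0.05. GH3.17 and IAA18 are called higher in all 6, and PIF7 is lower than light in all 4 darkened groups.

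Of the 5 cytokinin genes, 1 was called higher in DP at day 3, 2 in DP at day 6, none in IDL at day 3 and 1 in IDL at day 6, and none was called lower. Of all genes, 17.2%, 20.3%, 20.8% and 20.6% were called higher in these comparisons, so that 1 of 5 is about the share of all genes. Their median difference was 0.13, 0.11, 0.14 and 0.17, beside 0.04, 0.05, 0.06 and 0.03 over all genes. Between treatments none was called at day 3 and 1 was higher in IDL at day 6, where 8.74% and 15.1% of all genes were higher, and the medians were -0.11 and -0.20, beside 0.02 and -0.03. The type B regulator RR21 was higher in DP by 0.40 at day 3 (adjusted p = 0.0199, limma) and by 0.49 at day 6 (0.00361). It was dim, with group means from 3.31 in light to 3.80 in DP at day 6. RR18, another type B regulator, was 4.11, 4.02 and 4.06 in IDL at day 6, above the light arrays of 3.69, 3.69 and 3.09. It was higher there by 0.58 than in light (adjusted p = 0.00271, limma) and by 0.46 than in DP (0.0194). RR19, also dim with group means of 3.24 to 3.54, was called in DP at day 6 alone (0.30, limma adjusted p = 0.043). UGT76C1 and UGT76C2, which encode glucosyltransferases of cytokinins, passed the test nowhere. Nor did 3 further response regulators added from the annotation, RR22, RR23 and RR24. Of these, RR23 passed it in IDL at day 3 without light replicate 2 (0.344, adjusted p = 0.0404).

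RR21 in DP at day 6 and RR18 in IDL at day 6 against light passed the test whichever array was left out, and the other cytokinin calls did not. RR21 in DP at day 3 was lost without light replicate 1 or 2 or replicate 2 of DP at day 3 (limma adjusted p of 0.0579 to 0.0881, differences of 0.337 to 0.377), which left no call in the list in the latter 2 cases. Between treatments, RR18 at day 6 did not hold without DP replicate 3 at day 6 or replicate 1 of IDL at day 6 (0.0634 to 0.109, differences of 0.362 to 0.440). The RR19 call was lost without light replicate 2 or 3 or any 1 array of DP at day 6 (0.0625 to 0.17, differences of 0.239 to 0.324). In IDL at day 3 the count went from 0 to 1 without light replicate 1 (RR19, 0.339, adjusted p = 0.0314) and without light replicate 3 or replicate 2 of IDL at day 3 (RR21, 0.370 to 0.425, 0.014 to 0.0471). In DP at day 3 UGT76C1 passed the test without light replicate 1 (0.384, adjusted p = 0.0352).

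Both phytochrome genes measured beside FHL were called lower in DP at day 3 and day 6 and in IDL at day 3, and 1 of them also in IDL at day 6. Of all genes, 18.0%, 19.6%, 18.8% and 19.1% were called lower in these 4 comparisons. Between treatments neither was called at day 3, and 1 was higher in IDL at day 6, beside 8.74% and 15.1% of all genes. PIF7 (AT5G61270) encodes a phytochrome-interacting transcription factor that promotes growth in shade. In log2 intensity the arrays read 7.0, 6.82 and 6.33 in light, 4.08, 4.23 and 4.09 in DP at day 3, and 4.07, 4.22 and 4.56 in DP at day 6. Those of IDL read 4.30, 4.06 and 3.89 at day 3, and 4.68, 4.71 and 4.98 at day 6. All light arrays were far above all others. In DP it fell by 2.58 at day 3 (adjusted p = 2.15e-11, limma) and fell by 2.43 at day 6 (4.32e-11), and in IDL it fell by 2.63 (1.33e-11) and fell by 1.93 (1.69e-09), with an SE of 0.16. IDL exceeded DP by 0.51 at day 6 (0.0204), which did not hold without DP replicate 1 or 2 at day 6 or replicate 3 of IDL at day 6 (0.0661 to 0.106, differences of 0.398 to 0.476). At day 3 that difference was -0.05 (0.906), unlike the -3.03 of FHL.

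HYH, which encodes a relative of the light-promoting factor HY5, was lower than light in DP at day 3 (-0.40, adjusted p = 0.0216, limma), at day 6 of DP (-0.50, 0.00394) and at day 3 of IDL (-0.35, 0.0424). The difference in IDL at day 6 was -0.18 (0.334). The call in DP at day 3 was lost without light replicate 2 or 3 or replicate 3 of DP at day 3 (0.0519 to 0.141, differences of -0.396 to -0.279). The call in IDL at day 3 was lost without light replicate 2 or 3 or any 1 array of IDL at day 3 (0.0535 to 0.165, differences of -0.382 to -0.277). Between treatments at day 6 it passed the test without replicate 2 of DP at day 6 (0.435, 0.0259). HYH was dim, at 2.96 to 3.82 over all arrays.

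A further 5 genes of light and brassinosteroid signalling were added by name after the annotation had been read. AFR, an F-box gene needed for phytochrome A signalling, was lower than light (differences of -0.95, -1.15, -1.06 and -1.32) in the order DP at day 3, DP at day 6, IDL at day 3 and IDL at day 6 (limma adjusted p of 2.68e-06, 1.41e-07, 4.58e-07 and 1.46e-08). Its arrays ran from 5.19 to 5.51 in light and from 3.95 to 4.65 in darkness, so that they did not overlap. AFR and FHL therefore went apart in DP at both days and in IDL at day 3, where FHL stood above light. AT1G72390 was higher than light in IDL by 0.44 at day 3 (0.00417) and by 0.54 at day 6 (0.000598), and the differences in DP were 0.00 and 0.17. CSA1 was lower in IDL at day 6 (-0.66, 0.000846), LIP1 was higher in DP at day 3 (0.32, 0.0429) and day 6 (0.41, 0.00854), and BRH1, a brassinosteroid-responsive gene, was lower in DP at day 6 (-0.65, 3.92e-05). The LIP1 call at day 3 was lost without any 1 of the light arrays or replicate 2 or 3 of DP at day 3 (0.063 to 0.14, differences of 0.271 to 0.346), and CSA1 passed the test in DP at day 6 without light replicate 1 or replicate 2 of DP at day 6 (-0.430 to -0.409, 0.0334 to 0.0466). Between treatments at day 6, CSA1 passed it without replicate 3 of DP or replicate 2 of IDL at day 6 (-0.472 to -0.454, 0.035 to 0.0486), and LIP1 passed it in IDL at day 3 without replicate 1 of that group (0.356, 0.0453).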

How the data were processed

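The submitters' processing notes name oligo, an R package for arrays. For its version, background correction and normalization, nothing is given in the sources used here. The authors deposited 1 linear intensity per probe set and array (26676 probe sets, intensity 5.19 to 6633). From these, log2 was taken. Probe sets with exactly 1 gene in the platform annotation were kept (16179, with 588 of several genes and 9909 of none left out), the brightest stood for each of 5 genes with several, and 16174 genes resulted. Symbols came from RefSeq TAIR10.1 (16067 probe sets matched). No sequences or coordinates are given. Whether probes also bind transcripts of close relatives was not tested.

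Samples were grouped by their titles. A single fit of the 15 arrays used limma 3.58.1 in R 4.3.3 (lmFit and eBayes, a mean per group, 10.52 prior degrees of freedom), with two-sided Benjamini-Hochberg adjustment over all genes. The steps were tested on simulated data. The precision is limited by 3 arrays per group. The rule for named genes took the 7 genes, the measured genes of their families and the 3 nearest patterns per gene. It also took the called list genes with the largest rise or fall in each comparison. The other measured genes of the pathway lists were named beyond that rule. The 7 genes and the lists were chosen with earlier results of these data known, and 8 genes were added by name once the annotation was read. Replicate numbers were not used to pair the arrays in the main fit. Deviations of same-numbered arrays from their group means correlated at -0.078 to 0.075 in the 6 comparisons. Such low values cannot exclude a pairing. Alternatives were quantile normalization, centring on array medians, array weights, an intensity trend with robust prior, dim genes (lowest quartile of mean level) left out, stricter thresholds, only the arrays compared, the replicate block and each array left out.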

Additional observations from a re-analysis of the deposited data

Results flagged for a closer look

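The listed genes below differed between IDL and DP at the same day in the limma test of that difference, that is, between 2 darkening treatments that share the light control. At day 3 these were GH3.17 (1.66), IAA18 (0.66) and AT1G72390 (0.43), all higher in IDL. The AT1G72390 call had an adjusted p of 0.0109 and was lost without replicate 3 of IDL at day 3 (0.357, adjusted p = 0.0657).

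At day 6 the genes higher in IDL were GH3.17 (1.13), GH3.3 (0.69), PIF7 (0.51), RR18 (0.46), GH3.9 (0.45), IAA18 (0.43), BRH1 (0.42) and AT1G72390 (0.37), and IAA31 was lower (-0.33). Of these 9, GH3.17 and BRH1 kept their call whichever array was left out. The call of AT1G72390 was lost without replicate 1 or 2 of DP or replicate 2 or 3 of IDL at day 6 (0.322 to 0.356, adjusted p of 0.0521 to 0.0743), and also under quantile normalization (0.243, adjusted p = 0.131). Mesophyll marker sums also differed between the treatments at day 6, at 1041 to 1132 in DP and 1464 to 1569 in IDL, and their part was not tested.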

How the results depend on the processing

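No scaling turned the direction of any of the 7 genes: the largest shift of a difference was 0.11 under quantile normalization, 0.05 under centring and 0.08 with array weights, against 0.44 on leaving out 1 array. Direction turned on leaving out 1 array for IAA29 in DP at day 3 (0.003 and 0.061, in a range of -0.257 to 0.061), EXO in IDL at day 3 (-0.055, -0.025 and -0.118, in a range of -0.118 to 0.232) and FHL in IDL at day 6 (-0.042, in a range of -0.042 to 0.185), all 3 differences near 0. The cause was not tested. Only 3 arrays per group limit what can be seen. So does dim signal for ARR15, HYH, RR19, RR21, IAA31, AT1G43040 and many listed auxin genes without a call. The same holds for RR18 outside IDL at day 6 and for the low groups of IAA29, EXO and GH3.9.

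In the order DP at day 3, DP at day 6, IDL at day 3, IDL at day 6, and IDL against DP at day 3 and day 6, a 2-fold minimum left 1735, 2103, 2018, 2270, 564 and 1115 called genes of 5694, 6456, 6400, 6422, 2705 and 4699. With it, called auxin genes were 1, 2 and 3 in the first 3 comparisons and 1 and 1 between treatments, phytochrome genes 1, 1 and 1 in the first 3 and 0 between treatments at day 6, and cytokinin genes 0 wherever any had been called. At an adjusted p under 0.01, called auxin genes were 3 in DP at day 6, 3 in IDL at day 3 and 1 between treatments at day 6. Cytokinin genes were then 0, 1 and 0 in DP at day 3, DP at day 6 and between treatments at day 6, and phytochrome genes 1, 1 and 0 in DP at day 3, IDL at day 3 and between treatments at day 6. With dim genes left out, 1 phytochrome gene was called in DP at day 3, DP at day 6 and IDL at day 3 (HYH was not tested), and 1 cytokinin gene in DP at day 6. Quantile normalization and centring each gave 1 cytokinin gene in DP at day 6 and 2 phytochrome genes between treatments at day 6, and a fit of only the arrays compared gave 1 cytokinin gene in DP at day 6. Centring gave 2726 genes higher and 1933 lower in IDL against DP at day 6, against 2450 and 2249.

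On leaving out 1 array at a time, called genes ranged over 4988 to 5351, 5758 to 6107, 5675 to 6037, 5884 to 6112, 2189 to 2402 and 3963 to 4405. Auxin genes ranged over 3 to 3, 4 to 6, 3 to 5, 3 to 4, 2 to 3 and 1 to 5, cytokinin genes over 0 to 1, 1 to 2, 0 to 1, 1 to 1, 0 to 0 and 0 to 1, and phytochrome genes over 1 to 2, 2 to 2, 1 to 2, 1 to 1, 0 to 0 and 0 to 1. With the replicate number as a block, called genes were 5725, 6471, 6398, 6427, 2699 and 4750, and every count of calls was within 1.5 times the count without it. Under the block LIP1 lost its call in DP at day 3 (adjusted p = 0.052), CSA1 gained one in DP at day 6 (0.0373) and between treatments at day 6 (0.0137), and AT1G43040 gained one in DP at day 6 (0.0484).

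Calls of single listed genes also moved under other settings with every array kept. Quantile normalization ended those of RR19 in DP at day 6 (adjusted p = 0.0903), GH3.1 and AT1G43040 in IDL at day 3 (0.0643 and 0.0707), and IAA31 and AT1G72390 between treatments at day 6 (0.0518 and 0.131). It gave calls to AT1G72390 in DP at day 6 (0.345 from 0.171, adjusted p = 0.0208), LIP1 in IDL at day 3 (0.00704), and HYH and CSA1 between treatments at day 6 (0.0465 and 0.0335). Centring ended those of RR19 (0.059) and IAA31 (0.0681) and gave that of HYH (0.0415) in the same comparisons. A fit of only the arrays compared ended those of LIP1 in DP at day 3 (0.0577), RR19 in DP at day 6 (0.0857), GH3.1 and GH3.3 in IDL at day 3 (0.0629 and 0.0756) and IAA31 between treatments at day 6 (0.0575), and gave that of GH3.3 between treatments at day 3 (0.0276). Array weights ended that of LIP1 in DP at day 3 (0.0663) and gave those of YUC2 in IDL at day 6 (0.0426) and GH3.3 between treatments at day 3 (0.0458). Leaving out dim genes and the intensity trend each gave calls to AT1G43040 in DP at day 6 (0.0459 and 0.0484) and LIP1 in IDL at day 3 (0.0429 and 0.0422). A search for promoter motifs was not run, since no sequence was used here.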
